A study of Bos taurus with 18 samples.

Results

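The genes described here encode the protein parts of the spliceosome and the heterogeneous nuclear ribonucleoproteins (hnRNPs). A gene was taken when its symbol begins with SNRP, SNRNP, SF3A, SF3B, SRSF, PRPF, U2AF or HNRNP, and SNU13 was added. The platform annotation uses old names for some of them, so current symbols were used, which raised the number of matching probes from 95 to 128 of the 43794 gene probes. They stand for 72 genes. Of these, 69 had a probe above background and were tested, among 11044 genes in all. PRPF31, PRPF40B and SF3B4 were too dim to test.

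The RNA came from bovine cumulus cells, the somatic layers packed around the oocyte. The donors were 6 Holstein dairy cows in milk, 4 years old on average, and no genetic change or other treatment is given in the labels. FSH, which makes follicles grow, was given as 6 injections of 40 mg at intervals of 12 h over 3 days. Coasting is the time without FSH that followed, and it lasted 20, 44, 68 or 92 h. Each cow passed through all 4 coasting times, which makes 24 collections. The follicles used differed in diameter: 3 to 5 mm after 20 h of coasting, 6 to 8 mm after 44 or 68 h, and over 8 mm after 92 h. Effects of time and of follicle size cannot be told apart. Every array compared 44, 68 or 92 h RNA with 20 h RNA in the other channel. There were 3 replicates per time, each in both dye orientations, on 18 arrays. The labels do not tie replicates to cows. The p-values therefore speak only to the spread among these RNA samples, which may in part be technical. Values are log2 ratios of coasted over 20 h, averaged over the 2 orientations of a replicate.

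Splicing removes introns from pre-mRNA in a complex built anew on each intron. The U1 particle marks the 5′ splice site, U2 and the U2AF factors mark the branch point and 3′ splice site, and the U4/U6.U5 tri-snRNP then joins and is rearranged into the active form. A ring of Sm proteins sits on most of the small nuclear RNAs, a separate minor spliceosome serves a rare class of introns, and SR proteins and hnRNPs bind exons and introns and shift the choice of splice sites.

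Between 26.5% and 66.2% of probes were above background in the coasted channel of an array, and between 35.1% and 68.7% in the 20 h channel. Over genes, the r between the 2 dye orientations of a replicate lay between 0.10 and 0.74. At 92 h the orientation with coasted RNA in Cy3 lay on 1 slide and the other orientation on another, and no other time shared those slides, so slide and time cannot be told apart there. The 20 h channels were clustered by the correlation of their levels and cut into 3 sets, called A, B and C here. The labels do not mention these sets. Set A holds the 20 h channels of 44 h replicate 1, 68 h replicate 3 and 92 h replicate 1. Set B holds those of 44 h replicate 2, 68 h replicate 1 and 92 h replicate 2, and set C those of 44 h replicate 3, 68 h replicate 2 and 92 h replicate 3. Deviations of the 20 h level from its mean correlated with r from 0.69 to 0.91 in the 9 pairs within a set and from -0.69 to -0.16 in the 27 pairs between sets, over 11044 genes. The sets were drawn from these same correlations, so the gap in r is no separate test of them. Values of different times were read as sharing 20 h RNA, which the labels do not state. They are therefore set side by side below rather than correlated.

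At 92 h, 4 of the 69 genes passed an adjusted p of 0.05 in limma's moderated test, against 2.33% of all genes. SNU13 and SNRNP48 rose, where 1.25% of all genes rose, and SNRNP70 and SRSF3 fell, where 1.08% fell. Their folds were between 1.31 and 1.74. With any 1 of the 3 replicates of 92 h left out, 0 members passed. Of all genes, 0%, 0.109% and 0.589% passed without replicates 1, 2 and 3. At 68 h 0 of 69 passed, as did 0% of all genes, and at 44 h 0 of 69 passed against 0% of all genes. Without adjustment, 17 of 69 had a p under 0.05 at 92 h (10 higher and 7 lower) against 18% of all genes, and 14 of 69 at 68 h (6 higher and 8 lower) against 11%. At 44 h the number was 21 of 69, of which 6 were higher and 15 lower, against 9.54% of all genes. In the F-test over the 3 longer times SNRNP70 alone passed, among 0.67% of all genes. An unadjusted F-test p under 0.05 was found for 22 members, and the share of all genes was not computed for this count.

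The members' median lay below 0 at 44 h, and its sign at 92 h rested on replicate 3. The median log2 ratio was -0.15 at 44 h, with 46 of 69 below 0, -0.07 at 68 h, with 39 below 0, and 0.08 at 92 h, with 40 above 0. The median over all genes was between -0.003 and -0.001 at these times. The median of the members was not the same in each replicate. It was -0.03, -0.26 and -0.03 in replicates 1, 2 and 3 at 44 h, then -0.08, 0.01 and -0.22 at 68 h, and -0.04, 0.10 and 0.25 at 92 h. Replicates of opposite sign thus occurred at 68 and 92 h. Without the replicates that use set C of the 20 h RNA, the median was -0.23 at 44 h and -0.0046 at 92 h, with 34 of 69 above 0 at 92 h. The members were also more scattered than other genes: the median SD between replicates was 0.36, 0.25 and 0.25 at 44, 68 and 92 h, against 0.22, 0.14 and 0.14 over all genes. A mean change of at least 1.5-fold was seen in 7, 3 and 11 members at these times, that is 10.1%, 4.35% and 15.9%, against 5.16%, 4.23% and 10.2% of all genes. Dim probes have compressed ratios, and the part of the members' higher brightness in the scatter and in these shares was not tested.

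**Figure D1:**
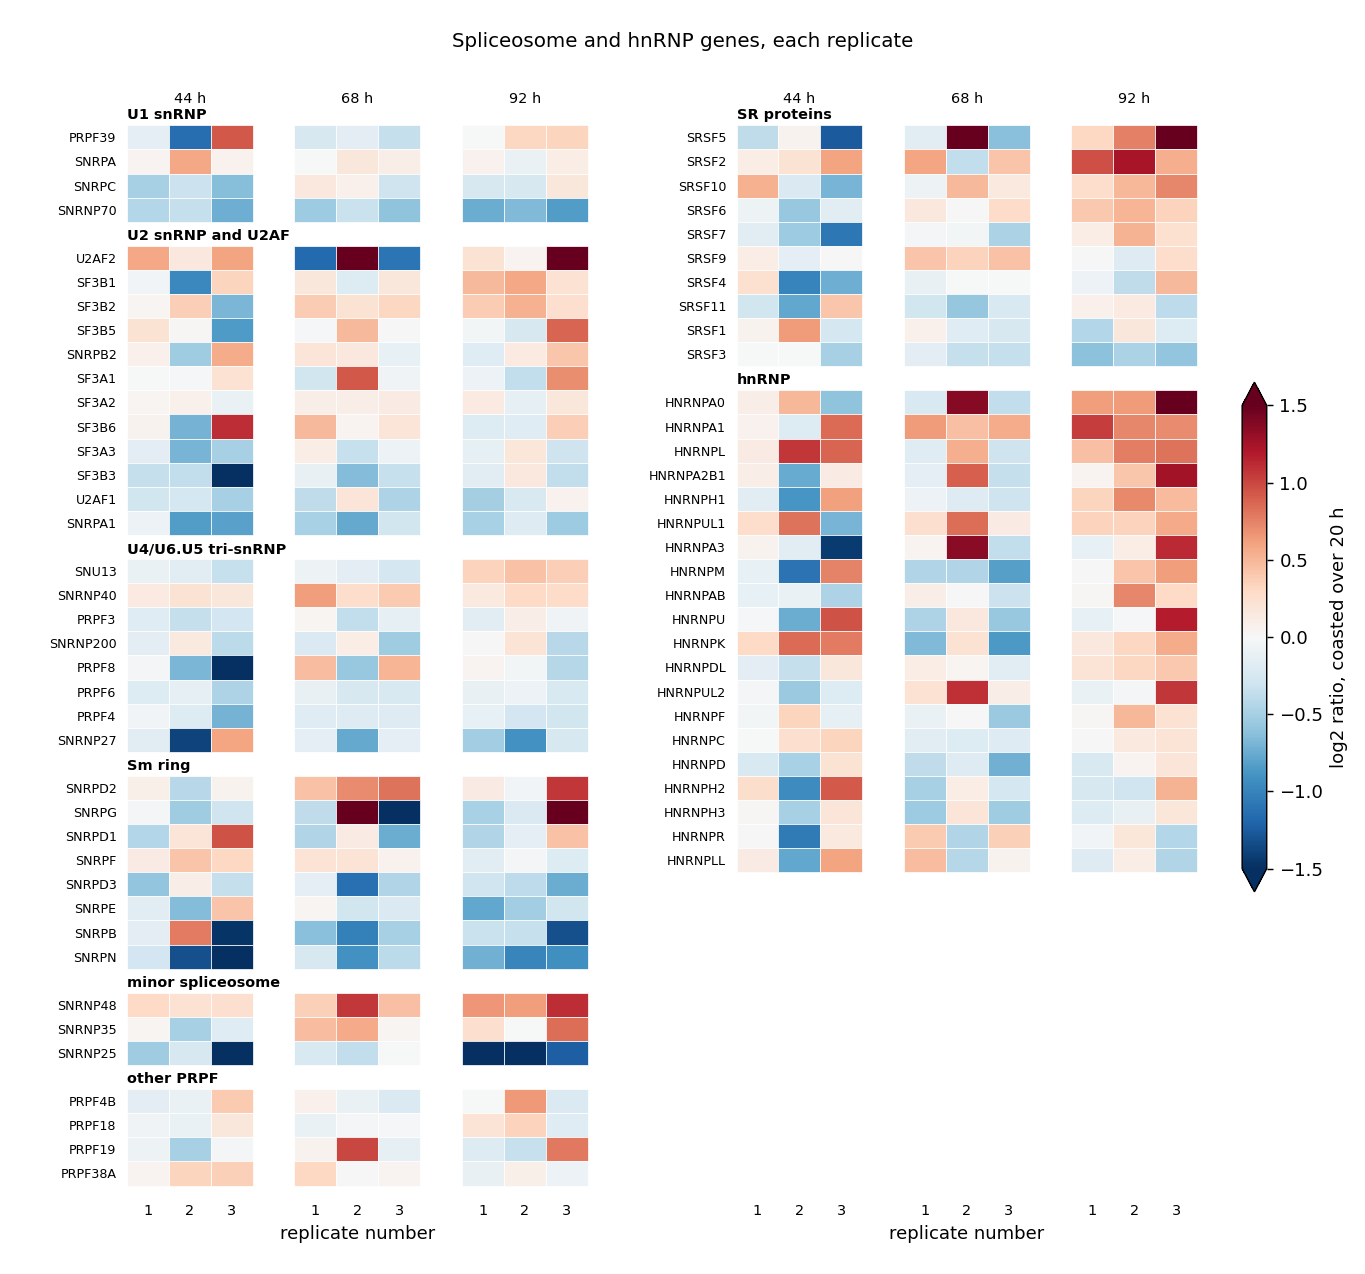
Log2 ratio of coasted over 20 h for the 69 tested genes in each of the 3 replicates at 44, 68 and 92 h, grouped by the particle or family of the protein and ordered by the 92 h mean; red is higher and blue lower than 20 h, and the colour scale ends at 1.5. SNRNP70 is blue and SNRNP48 red in all 9 columns, and 12 of the 20 hnRNP genes are above 0 in all 3 columns at 92 h.

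In the U1 particle, 1 of 4 tested genes fell at 92 h. SNRNP70 (probe EMBV3_38326) encodes the U1-70K protein, which binds U1 RNA directly and recruits SR proteins to the 5′ splice site. Its log2 ratios were -0.74, -0.66 and -0.84 at 92 h, -0.54, -0.34 and -0.61 at 68 h, and -0.44, -0.35 and -0.73 at 44 h. All 9 values were below 0, and the 92 h range overlapped the 44 h range through 44 h replicate 3. The mean at 92 h was -0.75 ± 0.09 (SD, n = 3), a 1.68-fold fall with a 95% interval from -0.94 to -0.55 and a limma adjusted p of 0.017. The means at 44 and 68 h, -0.51 and -0.50, did not pass (limma adjusted p 0.28 and 0.12). Both dye orientations gave nearly the same 92 h mean, -0.73 with coasted RNA in Cy5 and -0.77 in Cy3.

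The other U1 genes gave smaller or unequal values. SNRPC, which encodes the U1-C protein that steadies the pairing of U1 with the splice site, read -0.49, -0.32 and -0.63 at 44 h and -0.25, -0.25 and 0.17 at 92 h. Its 44 h values lay below 0 in all 3 replicates, but the mean was -1.01 with coasted RNA in Cy5 and 0.04 in Cy3 (limma adjusted p 0.28). SNRPA, which encodes the A protein of the particle, read 0.04, 0.58 and 0.07 at 44 h and lay between -0.10 and 0.17 at later times. Its 44 h mean was -0.025 with coasted RNA in Cy5 and 0.49 in Cy3. PRPF39, a U1-associated factor, ranged from -1.15 to 0.93 at 44 h.

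In the minor spliceosome, 1 of 3 tested genes rose at 92 h, and another had a lower value just outside the threshold. SNRNP48 (probe EMBV3_13993), whose protein binds the 5′ splice site of minor introns as part of the U11/U12 particle, read 0.66, 0.63 and 1.11 at 92 h. Its values were 0.36, 1.06 and 0.45 at 68 h and 0.30, 0.23 and 0.25 at 44 h. All 9 values were above 0, the 92 h values were above every 44 h value, and the highest values at 68 and 92 h both came from set C of the 20 h RNA. The 92 h mean of 0.80 ± 0.27 (SD, n = 3) was a 1.74-fold rise with a 95% interval from 0.45 to 1.14 (limma adjusted p 0.044). The orientations gave 0.75 and 0.85.

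SNRNP25, whose protein is another part of the U11/U12 particle, had the lowest 92 h mean of the 69 genes. It read -1.69, -1.62 and -1.24 at 92 h, -0.24, -0.37 and -0.002 at 68 h, and -0.53, -0.26 and -1.94 at 44 h. The 92 h values lay below every 68 h value and overlapped those of 44 h. Its mean of -1.52 ± 0.24 (SD, n = 3), 2.86-fold lower, gave a limma adjusted p of 0.051. SNRNP35, which encodes the minor counterpart of U1-70K, read 0.46, 0.57 and 0.03 at 68 h and 0.25, -0.01 and 0.84 at 92 h (limma adjusted p 0.53 and 0.36).

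In the tri-snRNP, 1 of 8 tested genes rose at 92 h. SNU13 (probe EMBV3_31747) encodes a protein that binds the kink-turn of U4 RNA and of box C/D small nucleolar RNAs. It read 0.35, 0.44 and 0.37 at 92 h, against -0.07, -0.16 and -0.26 at 68 h and -0.10, -0.17 and -0.35 at 44 h. The 92 h values were all above 0 and the 6 earlier ones all below it. Its 92 h mean of 0.39 ± 0.05 (SD, n = 3), a 1.31-fold rise, had a 95% interval from 0.25 to 0.52 and a limma adjusted p of 0.029. The difference from 44 h was 0.59 (interval 0.40 to 0.78) and that from 68 h 0.55 (interval 0.36 to 0.74), with unadjusted p of 1.4e-04 and 2.23e-04 and limma adjusted p of 0.13 and 0.64.

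The 92 h mean of SNU13 was not the same in both dye orientations. It was 0.69 with coasted RNA in Cy5 and 0.09 in Cy3, and the earlier times had the same gap, 0.15 and -0.56 at 44 h and 0.12 and -0.45 at 68 h. The difference between 92 and 44 h was close in both, 0.54 in Cy5 and 0.65 in Cy3. A second, dimmer SNU13 probe read 0.09 on average at 92 h, and the mean of both probes, 0.24, did not pass (limma adjusted p 0.094).

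**Figure D2:**
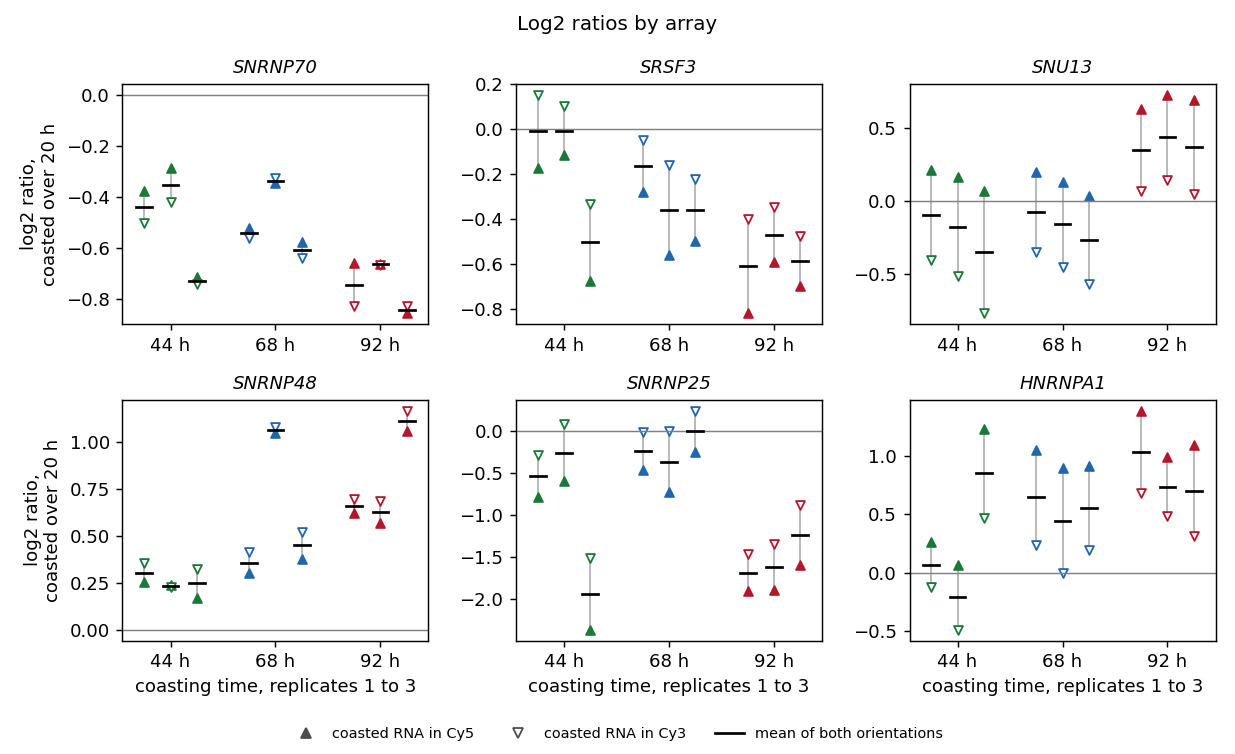
Log2 ratios of 6 genes on each of the 18 arrays: filled triangles have coasted RNA in Cy5, open triangles in Cy3, and bars are the mean of a replicate. SNRNP70 and SNRNP48 keep their sign on all 18 arrays, whereas the 92 h means of SNU13 differ between orientations (0.69 and 0.09).

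The tri-snRNP genes mostly had 44 h means below 0. Of the 8 genes, 7 were below 0 there, 5 of them in all 3 replicates, with a median of -0.27, and 6 had an unadjusted p under 0.05 (5 lower and 1 higher), though 0 passed the adjusted test. Over all genes at 44 h, 12.9% were below 0 in all 3 replicates and 9.54% had an unadjusted p under 0.05. PRPF8, the large U5 protein at the catalytic centre, read -0.03, -0.69 and -2.35 at 44 h, and so its mean of -1.02 leaned on replicate 3 (limma adjusted p 0.50). At 92 h it read 0.04, -0.04 and -0.43. PRPF6, which bridges U5 and U4/U6, was below 0 in all 9 values, from -0.46 to -0.09, with a 44 h mean of -0.27 (limma adjusted p 0.28). SNRNP40, a U5 protein, was above 0 in all 9 values. It read 0.63, 0.28 and 0.40 at 68 h, where its mean of 0.43 had the smallest unadjusted p of the members at 68 h (3.11e-04) and a limma adjusted p of 0.11. The 44 and 92 h means of SNRNP40 were 0.17 and 0.24.

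Of the 12 tested genes of the U2 particle and U2AF, 0 passed at any time. SNRPA1, which encodes one of the proteins specific to U2, was below 0 in all 9 values. It read -0.09, -0.84 and -0.82 at 44 h, -0.48, -0.77 and -0.29 at 68 h, and -0.48, -0.19 and -0.55 at 92 h, with limma adjusted p of 0.30, 0.32 and 0.25. Its 2 further probes had means below 0 at all 3 times as well, with 92 h means of -0.15 and -0.16. SF3B3 and SF3A3, members of the SF3 complexes that bind the branch point region, were lowest at 44 h. SF3B3 read -0.35, -0.36 and -1.71 there and -0.17, 0.16 and -0.37 at 92 h. SF3A3 read -0.16, -0.69 and -0.50 at 44 h and -0.13, 0.18 and -0.31 at 92 h, and both genes thus overlapped between these times.

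Of the 8 genes of the Sm ring, the shared core of most spliceosomal particles, 0 passed, and 6 had a mean below 0 at 92 h. In 5 of them all 3 values were below 0, against 22.5% of all genes, and the median was -0.31. SNRPN, a paralogue of SNRPB that is imprinted in mammals, was below 0 in all 9 values and read -0.28, -1.31 and -2.29 at 44 h and -0.72, -0.99 and -0.92 at 92 h (limma adjusted p 0.28 and 0.22). Probes for SNRPN and SNRPB can share signal because the genes are alike. SNRPB read -0.34, -0.35 and -1.31 at 92 h, and SNRPD3 read -0.30, -0.39 and -0.75, both below 0 in all 3 replicates (limma adjusted p 0.45 and 0.27). A dimmer second probe of SNRPB had a 92 h mean of 0.11, and that of SNRPN had -0.08. With coasted RNA in Cy5 and Cy3, the 92 h means were -1.08 and -0.25 for SNRPB and -1.39 and -0.36 for SNRPN. SNRPD2 lay above 0 at 68 h, with 0.44, 0.71 and 0.82 (limma adjusted p 0.34).

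SNRPF, another ring protein, read 0.13, 0.43 and 0.31 at 44 h, 0.20, 0.21 and 0.06 at 68 h, and -0.17, -0.03 and -0.20 at 92 h. Every value at 44 and 68 h was above 0 and every value at 92 h below it, once both orientations were averaged. With coasted RNA in Cy5 the means at 44, 68 and 92 h were 0.49, 0.30 and 0.07, and in Cy3 0.09, 0.02 and -0.33. The 92 h mean was 0.42 lower than that of 44 h (interval -0.64 to -0.21, unadjusted p 0.0024, limma adjusted p 0.26). The other PRPF genes had means between -0.20 and 0.30 at all times. PRPF38A, a late-joining factor of the precatalytic spliceosome, read 0.04, 0.34 and 0.36 at 44 h but was 0.70 in one orientation and -0.21 in the other. PRPF18, a second-step factor, read 0.20, 0.34 and -0.18 at 92 h. PRPF19, the ubiquitin ligase of the complex named after it, read 0.05, 1.00 and -0.14 at 68 h, and its mean there without replicate 2 was -0.042.

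Among the 10 SR proteins, 1 fell at 92 h. SRSF3 (probe EMBV3_13152), the smallest SR protein, acts in exon choice and in mRNA export. It read -0.61, -0.47 and -0.59 at 92 h, -0.16, -0.36 and -0.36 at 68 h, and -0.01, -0.01 and -0.50 at 44 h. The 92 h values were below every 68 h value and overlapped the lowest 44 h value. Their mean of -0.56 ± 0.08 (SD, n = 3), a 1.47-fold fall, had a 95% interval from -0.79 to -0.32 and a limma adjusted p of 0.043. The mean was -0.70 with coasted RNA in Cy5 and -0.41 in Cy3.

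Other SR genes were higher at 92 h without passing, so the family did not share a direction. SRSF2, which promotes exon inclusion, read 0.97, 1.23 and 0.55 at 92 h, a mean of 0.92 (1.89-fold, limma adjusted p 0.073). A second probe of SRSF2 gave 0.91 and the dimmest kept one 0.06. SRSF6 read 0.41, 0.51 and 0.35 at 92 h, 0.15, 0.002 and 0.29 at 68 h, and -0.08, -0.56 and -0.17 at 44 h. On this brightest probe, the SRSF6 values of 92 h were thus all above those of 68 h, which were all above those of 44 h. Its further kept probes had 44 h means of 0.15, 0.02 and 0.40 and 92 h means of 0.69, 0.21 and -0.19. The SRSF6 difference between 92 and 44 h was 0.69 (interval 0.37 to 1.01, unadjusted p 0.0014, limma adjusted p 0.26). SRSF9 read 0.43, 0.35 and 0.43 at 68 h and ranged from -0.19 to 0.28 at 92 h, and its 68 h mean of 0.40 had a limma adjusted p of 0.18.

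The 20 hnRNP genes were the class with the highest 92 h median among those with 4 or more genes, 0.34. Of the 20, 15 had a mean above 0, 12 were above 0 in all 3 replicates and 0 were below 0 in all 3, but 0 passed the adjusted test. Over all genes 49.6% had a mean above 0 and 23.5% were above 0 in all 3. An unadjusted p under 0.05 was found for 5 of 20, or 25%, near the 18% of all genes. Their median was -0.06 at 44 h and -0.04 at 68 h. By replicate the 92 h median was 0.01, 0.33 and 0.54, so it was near 0 in replicate 1 and highest in replicate 3. Without replicate 3 it was 0.22, with 13 of 20 above 0. The hnRNP values also differed by dye orientation, and each orientation had its own slide at 92 h. With coasted RNA in Cy5 the 92 h means ran from 0.03 (HNRNPR) to 1.18 (HNRNPA0). With coasted RNA in Cy3 they ran from -0.48 (HNRNPH3) to 0.76 (HNRNPA0), and several lay below 0.

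**Figure D3:**
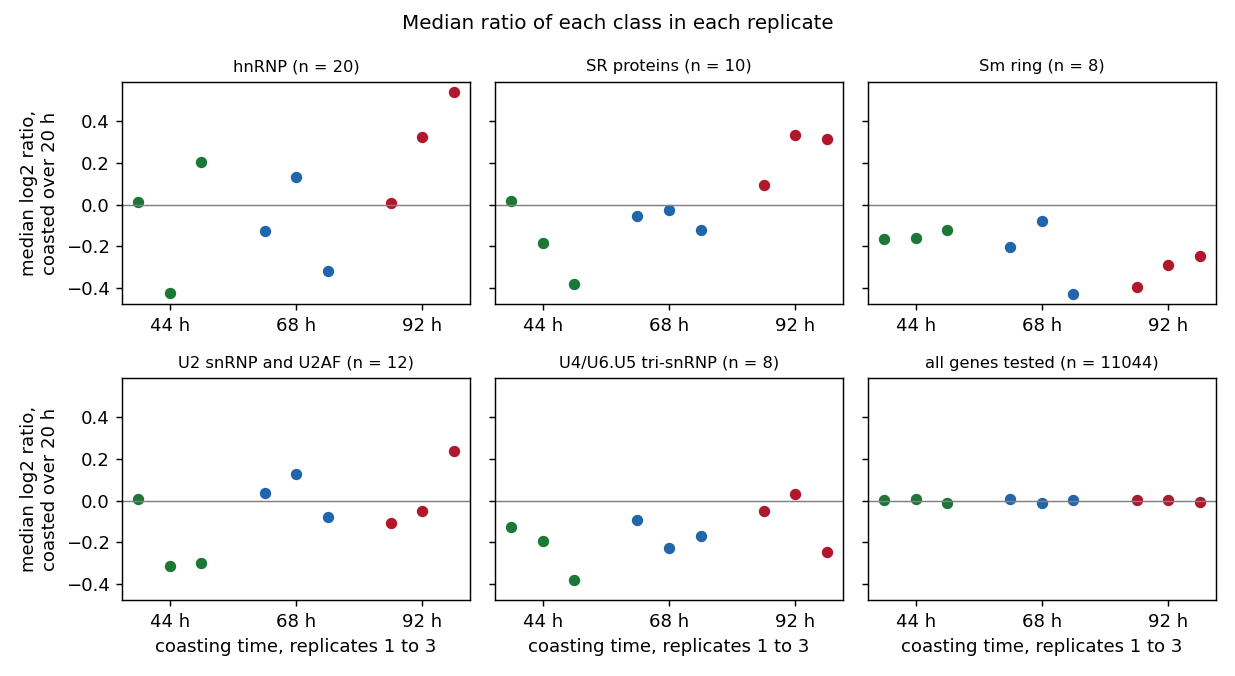
Median log2 ratio of 5 classes and of all 11044 genes in each replicate, with green for 44 h, blue for 68 h and red for 92 h and the number of genes in each title. The hnRNP medians at 92 h run from 0.01 to 0.54, the Sm ring is below 0 in all 9 values, and the medians of all genes stay between -0.01 and 0.01.

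HNRNPA1, an abundant hnRNP that opposes SR proteins at many exons, read 1.04, 0.74 and 0.70 at 92 h and 0.64, 0.45 and 0.55 at 68 h. At 44 h it read 0.07, -0.21 and 0.85. The 92 h values were above every 68 h value, and the 44 h values spanned both. Its 92 h mean of 0.83 ± 0.18 (SD, n = 3), 1.77-fold higher, had a limma adjusted p of 0.068, and the orientations gave 1.16 and 0.49. HNRNPL, which binds CA-rich RNA, read 0.13, 1.07 and 0.88 at 44 h and 0.45, 0.77 and 0.82 at 92 h, and -0.18, 0.55 and -0.31 at 68 h (limma adjusted p 0.36, 0.16 and 0.98 at 44, 92 and 68 h).

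In HNRNPK, HNRNPC and HNRNPM the 68 h mean was the lowest of the 3 times. HNRNPK, which binds C-rich RNA and DNA, read 0.30, 0.85 and 0.78 at 44 h, -0.66, 0.23 and -0.86 at 68 h, and 0.15, 0.32 and 0.56 at 92 h. The 44 h values were all above the 68 h values, a difference of -1.07 from 44 to 68 h (interval -1.77 to -0.37, unadjusted p 0.0084, limma adjusted p 0.51). HNRNPC, which coats uridine-rich stretches of nascent RNA, read -0.17, -0.20 and -0.20 at 68 h and 0.0004, 0.14 and 0.21 at 92 h, so the groups did not overlap. HNRNPM read -0.45, -0.45 and -0.83 at 68 h and 0.01, 0.43 and 0.63 at 92 h, also without overlap. Neither difference passed (limma adjusted p 0.79 and 0.82). HNRNPC at 44 h read -0.01, 0.25 and 0.34, with means of 0.53 in Cy5 and -0.15 in Cy3. Its sign also differed by orientation at 68 h (0.03 in Cy5 and -0.41 in Cy3) and at 92 h (0.34 and -0.11).

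The 9 highest single values among the members all came from 68 h replicate 2 and 92 h replicate 3, which share set C of the 20 h RNA. SRSF5, an SR protein, read 2.35 in 68 h replicate 2 and 2.58 in 92 h replicate 3, and between -0.62 and 0.75 in the other values at 68 and 92 h. U2AF2, the large U2AF subunit that reads the polypyrimidine tract, read 1.55 and 1.90 in those 2 replicates, SNRPG of the Sm ring read 1.55 and 1.83, HNRNPA0 read 1.36 and 1.64, and HNRNPA3 read 1.35 and 1.12. In 44 h replicate 3, which shares the set, they read -1.26 for SRSF5, 0.61 for U2AF2, -0.30 for SNRPG, -0.60 for HNRNPA0 and -1.43 for HNRNPA3. SNRPG also read -2.86 in 68 h replicate 3, of set A, from -4.71 with coasted RNA in Cy5 and -1.01 in Cy3.

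The 20 h level of SRSF5 on a log2 intensity scale was 14.55 to 14.8 in set A, 14.2 to 14.4 in set B and 12.3 to 12.6 in set C. Its coasted level at 92 h was 14.9 in all 3 replicates, and at 68 h it was 14.2, 14.7 and 14.2. Among coasted levels, that of 44 h replicate 3, at 11.4, was the lowest, and the others were at 14.2 or above. U2AF2 had 20 h set means of 11.9, 11.4 and 10.1 in A, B and C, and SNRPG had 12.4, 12.7 and 10.8. The set A levels of SNRPG ran from 11.7, in 68 h replicate 3, to 12.9. Without set C, the 92 h mean of SRSF5 went from 1.22 to 0.53, that of U2AF2 from 0.72 to 0.13, that of SNRPG from 0.37 to -0.36 and that of HNRNPA0 from 0.97 to 0.64. A dimmer second probe of SRSF5 read -0.12 on average at 92 h. SRSF5, U2AF2 and HNRNPA0 did not pass with or without set C. Set means of the 20 h level ranged over more than 1 log2 unit in 5 members, which also include HNRNPUL2 and SNRPD1, or 7.25% of 69, against 4.65% of all genes.

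**Figure D4:**
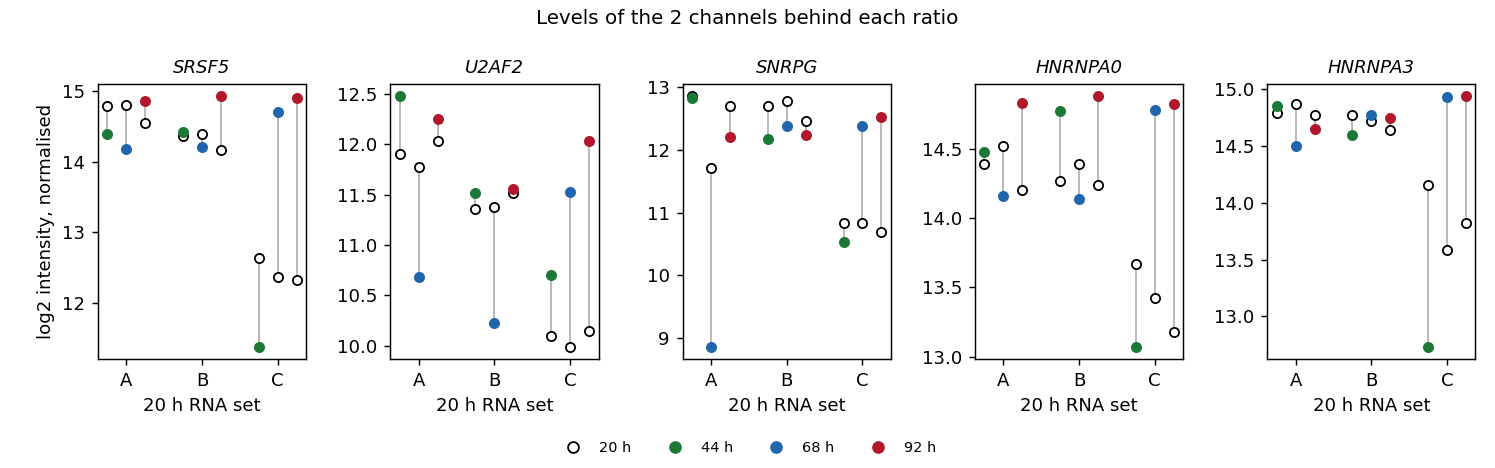
Normalised log2 intensity of the 20 h channel (open circles) and of the coasted channel (green 44 h, blue 68 h, red 92 h) for 5 genes, with the 9 comparisons ordered by the set of their 20 h RNA; each gene has its own axis. In set C the 20 h level of SRSF5 is 12.3 to 12.6, against 14.2 to 14.8 in sets A and B, while its 68 and 92 h levels stay at 14.2 to 14.9.

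The 4 members called at 92 h were also tested with the sets in view. With the set as a block in the fit, SNU13, SNRNP48, SNRNP70 and SRSF3 passed again at 92 h (limma adjusted p 0.032, 0.027, 0.024 and 0.032), where 5.07% of all genes passed. With the replicate number as a block, SNRNP70 and SNU13 passed (limma adjusted p 0.016 and 0.048) and SNRNP48 and SRSF3 did not (0.092 and 0.065). In that fit 1.06% of all genes passed. Leaving out set C, 4 members passed, against 0.824% of all genes, but not the same 4. SNRNP70 and SNRNP48 were among them (limma adjusted p 0.039 for both), and SNU13 and SRSF3 were not (0.080 and 0.060). Leaving out set A or set B, 0 members and 0% of all genes passed, with 3 values fewer in the fit. The block fits leave the 92 h log2 ratios of these 4 genes as they were. With a set left out, the ratios ran from -0.79 to -0.70 for SNRNP70 and from 0.64 to 0.88 for SNRNP48. Their sign could not change there, because all 3 values of each gene at 92 h had 1 sign.

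Differences between the longer times were tested through the 20 h RNA, and 0 members passed in any. Unadjusted p-values under 0.05 were found for 8 of 69 between 92 and 44 h, against 7.74% of all genes, for 7 between 92 and 68 h, against 5.93%, and for 7 between 68 and 44 h, against 5.41%. Between 92 and 44 h 6 of the 8 were higher at 92 h, among them SNU13, SRSF6 and SNRNP48, and SNRPF and SRSF3 were lower. The median difference of the members between 92 and 44 h was 0.20, with 51 of 69 above 0, against 0.0004 over all genes. The smallest limma adjusted p of a member was 0.13.

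All 9 values had 1 sign in 9 of the 69 genes, or 13.0%, against 5.82% of all genes. SNRNP40 and SNRNP48 were above 0 throughout, and PRPF4, PRPF6, SNRNP25, SNRNP70, SNRPA1, SNRPN and SRSF3 below 0 throughout. The 92 h mean had the same sign in both dye orientations in 43 of 69 members, or 62.3%, against 51.1% of all genes. The median gap between orientations was 0.43 in the members and 0.20 in all genes at 92 h. The part of the members' higher brightness in these comparisons was not tested.

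Further probes of a gene often read differently. Among the tested genes 42 had 1 kept probe, and 27 had 42 further kept probes between them. Those further probes had the sign of the brightest probe in 32 of 42 cases at 44 h, 25 at 68 h and 23 at 92 h. SRSF1, one of the first SR proteins known, was such a case: its brightest probe read -0.44, 0.17 and -0.20 at 92 h, while a second probe had a mean of 0.72 with an adjusted p of 0.018 when limma was run on every probe. SNRNP70, SRSF3 and SNRNP48 have 1 probe each, so they had no such check.

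**Figure D5:**
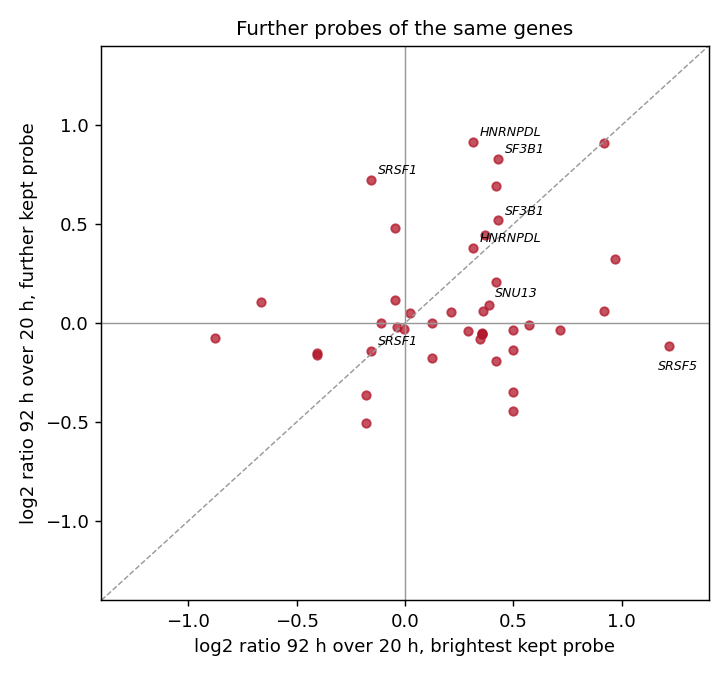
Mean log2 ratio at 92 h of the brightest kept probe of a gene (horizontal) and of each of the 42 further kept probes of 27 genes (vertical), with the line of equal values dashed. Of the 42 points, 23 have the same sign on both axes, and the further probe of SRSF5 is at -0.12 against 1.22 for the brightest.

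Other genes of the splicing machinery and its regulators lie outside the name rule. Of 159 such genes 136 were tested, with a 92 h median of 0.005. At that time 2 rose and 4 fell, where 1.25% of all genes rose and 1.08% fell. NONO, a paraspeckle protein, rose with 0.76, 0.77 and 0.48 (limma adjusted p 0.021), and CTNNBL1, a partner of the Prp19 complex, rose with 0.91, 1.59 and 0.57 (limma adjusted p 0.035). ALYREF, an mRNA export adaptor, fell with -0.68, -0.62 and -0.63 (limma adjusted p 0.013), and ELAVL1, a stabiliser of AU-rich mRNAs, fell with -0.74, -1.07 and -0.75 (limma adjusted p 0.032). PPIL1, a prolyl isomerase of the spliceosome, fell with a mean of -1.13, and ZCRB1, a protein of the U11/U12 particle like SNRNP48 and SNRNP25, with a mean of -0.56 (limma adjusted p 0.040 and 0.035). All 6 genes had 1 sign in the 3 replicates at 92 h. At 44 and 68 h 0 of the 136 passed, as did 0% of all genes, and the medians of the 136 were -0.09 and -0.04.

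Markers of cell types were read beside these values. All 12 markers of cumulus and granulosa cells passed the filter on dim probes, but the 92 h signal of FOXL2 exceeded background in 0 of 6 hybridisations and that of KITLG in 3 of 6. The median of the 12 at 92 h was -0.44, and GATM alone passed, and was higher. Their summed intensity was 97170 to 156100 in the 20 h channels and 47610 to 139100 in the 92 h channels. Of 12 theca and stroma markers 10 were tested, with a 92 h median of 0.02 and 5 of 10 above 0. MYH11 and PDGFRA rose at 92 h. The summed intensity of the 10 tested markers was 9196 to 14390 at 20 h and 13050 to 24070 at 92 h. Of 11 leukocyte markers 5 were tested and CD68 rose. The sums over these 5 were 1461 to 2452 at 20 h and 1881 to 3656 at 92 h. The oocyte, endothelial and erythrocyte lists had 8, 6 and 4 tested genes and 0 calls. Over all genes 1.25% rose and 1.08% fell at 92 h. The part of other cells in the values of the splicing genes was not tested, and in such pooled RNA fewer cells of a type and less RNA per cell cannot be told apart.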

How the data were processed

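Per the labels' protocols, cumulus RNA was amplified in 2 rounds, labelled with Cy3 or Cy5 and hybridised to 2-colour Agilent arrays. The deposited scanner files give uncorrected mean pixel intensity, per the file headers, for spot and surrounding background at both dyes. Array medians were 129 to 312 (Cy3) and 102 to 257 (Cy5). The number of arrays limits the precision. The authors' deposited value table holds log2 ratios. Set against the scanner values it followed Cy5 over Cy3 (r 0.81 to 0.91, slope 0.98 to 1.22, column medians -0.04 to 0.02), while how it was corrected and normalised is not given in the sources used here. It served as an alternative only.

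Ignored spots, 2 to 24 of 45220 on an array, were dropped. Background was corrected with normexp (offset 50) and arrays were normalised by loess with control spots at weight 0. Loess assumes that most genes do not change. All ratios were given the direction coasted over 20 h, and averaging both orientations left 9 values. The same replicate number in opposite orientations was read as a dye swap of the same extracts. A probe was above background where its signal exceeded the mean plus 2 SD of 153 negative controls, and was kept where this held on at least 50% of the arrays of a coasting time (27381 probes). The brightest kept probe stood for a gene. Dim probes have compressed ratios.

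limma 3.58.1 in R 4.3.3 (lmFit, eBayes) fitted 1 coefficient per time, without a block, with 6 residual and 1.13 prior degrees of freedom. Tests were two-sided, adjusted by Benjamini-Hochberg over 11044 genes, with a threshold of 0.05. The script was tested on simulated data. Intervals are limma's 95% intervals and are not adjusted. Because values of different times were read as sharing 20 h RNA, 6 may overstate the degrees of freedom.

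Of the 128 probes, 33, for 13 genes, fit the name rule only through the current RefSeq symbol (assembly ARS-UCD2.0). Genomic positions and sequences are not used here. The members, classes and lists were chosen with earlier results of these data known. Named genes are SNU13 and members past the threshold, the 3 of smallest F-test p in each class, and at each time the 3 highest and 3 lowest ratios with 1 sign in all replicates, plus up to 3 genes past the threshold at 92 h per list. PRPF39, SNRPG, SRSF1, SRSF7, SRSF9, HNRNPA3, HNRNPAB, HNRNPH1, HNRNPUL2 and SNRPD1, and those named with all 9 values of 1 sign, were added after their values were seen.

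Same-numbered values of 44 and 92 h deviated together (r 0.36, 0.26 and 0.24), and they share a set of 20 h RNA. For pairs with 68 h r ranged from -0.35 to -0.03. Alternatives covered background, normalisation, probe choice, dye orientation, blocks and left-out replicates, and the use of the 20 h sets was added after the data were seen.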

Additional observations from a re-analysis of the deposited data

Results flagged for a closer look

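A member is listed here where every replicate of one time moved one way against 20 h and every replicate of another time the opposite way. The signs are those of the brightest probe, as the mean of both dye orientations, and not all were the same in each orientation. Such opposite signs were found in 9 of 69 members, or 13%, against 5.93% of all genes. The part of the members' higher brightness in this share was not tested. Each difference was tested in limma, and 0 passed after adjustment over all genes. SNU13 was 0.59 higher on the log2 scale at 92 h than at 44 h (adjusted p 0.13) and 0.55 higher than at 68 h (adjusted p 0.64), with close values in both dye orientations (0.54 and 0.65 against 44 h, 0.56 and 0.54 against 68 h). A dimmer second probe of SNU13 had means of -0.08, 0.25 and 0.09 at 44, 68 and 92 h. SNRPF was lower at 92 h, with a difference of -0.42 from 44 h (adjusted p 0.26) and of -0.29 from 68 h (adjusted p 0.79). The difference from 44 h was -0.42 in both orientations, but the 92 h mean of SNRPF was 0.07 in Cy5 and -0.33 in Cy3. SRSF6 was 0.69 higher at 92 h than at 44 h (adjusted p 0.26) and 0.42 higher at 68 h than at 44 h (adjusted p 0.65). The further kept probes of SRSF6 had 44 h means above 0, of 0.15, 0.02 and 0.40. SRSF7, an SR protein, was 0.89 higher at 92 h than at 44 h (adjusted p 0.39) and 0.48 higher than at 68 h (adjusted p 0.87). Its dimmer second probe had means of -0.22, -0.32 and -0.04 at 44, 68 and 92 h. HNRNPAB was 0.58 higher at 92 h than at 44 h (adjusted p 0.55), and HNRNPUL2 was 0.74 higher at 68 h than at 44 h (adjusted p 0.9985). HNRNPC was 0.31 higher at 92 h than at 68 h (adjusted p 0.79), HNRNPM was 0.93 higher (adjusted p 0.82) and HNRNPH1 was 0.70 higher (adjusted p 0.84). For HNRNPC that difference was 0.31 in Cy5 and 0.30 in Cy3, but its signs at 68 and 92 h differed by orientation. Slide and time cannot be told apart in the differences from 92 h.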

How the results depend on the processing

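At 92 h, 4 members passed. Shares in brackets are those of all genes that passed. The number was 7 without background correction (4.17%), 2 without the filter on dim probes (1.18%) and 0 with median centring in place of loess (0.616%). With probes above background on every array it was 5 of 60 members (5.53%). It was 0 with a trended, robust eBayes (0%), 0 with 92 h fitted alone (0.453%) and 2, SNRNP70 and SNU13, with the replicate block (1.06%). The number was 8 from arrays with coasted RNA in Cy5 (3.25%) and 13 in Cy3 (13.5%). It was 40, beside 40.7% of all genes, with slide as a random block over 18 arrays, a fit that counts both orientations as replicates. Without 1 replicate the number ranged from 0 to 7. It was 0 without any 1 of the 92 h replicates (0%, 0.109% and 0.589%) and 7 without 44 h replicate 2 (4.74%). It was 2 without 44 h replicate 1 (1.54%) or 68 h replicate 1 or 3 (0.924% and 0.86%). Leaving out 20 h set A or B gave 0 (0%). SNRNP70 passed in 20 of 28 alternatives, SNU13 in 15, SNRNP48 in 14 and SRSF3 in 11, with no change of sign. Blocks and left-out replicates of other times leave the 92 h ratio as it was. Leaving out 1 replicate of 92 h cannot change its sign, as all 3 had 1 sign. At 68 h 1 member passed in Cy5 alone (0.561% of all genes), 14 in Cy3 alone (16.5%) and 12 with the slide block (9.62%). At 44 h 2 passed in Cy3 alone (0.833%) and 36 with the slide block (35.7%). The slide block gave 35 members for 92 against 44 h, 15 for 92 against 68 h and 4 for 68 against 44 h, beside 28.7%, 9.96% and 3.38% of all genes, and every other alternative gave 0 for these 3 differences, including the replicate block over 44 and 92 h. In the F-test 1 member passed, against 3 without background correction (1.58% of all genes) and 2 with probes above background on every array (2.13%). It was 12 in Cy5, 23 in Cy3 and 52 with the slide block (6.05%, 21.5% and 60.6% of all genes), and 3 with the 20 h set as a block (2.62%). It was 0 with median centring (0.0905%), with scaling between arrays (0.407%), with trended, robust eBayes (0%) or without any 1 of the 3 sets (0%). Without 1 replicate the F-test gave 0 (68 h replicate 1 or 3, or any of 92 h) to 5 (44 h replicate 3). Where it gave 0, at most 0.154% of all genes passed, and where it gave 5, 1.21% did. The members' median at 92 h went from 0.08 to -0.0046 without replicate 3, and that at 44 h from -0.15 to -0.31 with median centring.

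Among the gene ratios followed through the alternatives, signs reversed at 44 h for HNRNPC (-0.15), PRPF38A (-0.21) and SNRPC (0.041) in Cy3 alone. They also reversed for SNRPA (-0.025) at 44 h in Cy5 alone, and for PRPF18 at 92 h with the mean of its probes (-0.017) and in Cy3 alone (-0.22). For PRPF19 the sign reversed at 68 h without set C (-0.042) or 1 replicate (-0.042 without replicate 2 to 0.52 without replicate 3). Other ratios changed sign with orientation too. SNU13 was 0.15 at 44 h and 0.12 at 68 h in Cy5 alone, and SNRPF was 0.07 at 92 h in Cy5 alone, against means below 0. At 92 h, 43 of 69 members had the same sign in both orientations. Causes were not tested. With 3 replicates per time, the calls at 92 h depend on each 92 h replicate.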
